A study of Mus musculus with 2 samples.

Results

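The 46 genes described here carry out mitosis. They build the spindle, condense and hold the chromosomes, check their attachment, start anaphase and divide the cell. They were picked by symbol as a set of mitosis and spindle genes, and all 46 were found among the 32285 genes of the matrix. They were counted in B16F10 cells, a mouse melanoma line, taken from lungs of wild-type mice, from lungs of Prf1-/- mice and from the bone of their knees. Killer lymphocytes use the product of Prf1, perforin, to open pores in target cells. The deletion is in the host, so the sorted tumour cells give no check of it. Tissue was digested at 37 °C, resected lung tumours over 20 min and crushed bones over 30 min, before GFP+CD45-DAPI- cells were sorted. The cells of the 3 conditions were marked with 3 hashtag antibodies, mixed in equal parts and sequenced as a single 10x 3′ run. The sources used here do not give the strain, age or number of the mice, or how many tumours or knees were pooled.

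Counts of unique molecular identifiers (UMIs, which mark single captured mRNA molecules) were read in barcodes with at least 1000 genes and at most 15% mitochondrial UMIs. A barcode was given to the hashtag with its largest count where that count was at least 2 times the second. This left 1227 WT lung cells, 1520 Prf1-/- lung cells and 385 Prf1-/- bone cells. Another 6270 passing barcodes had no entry in the hashtag matrix. They are called unlisted here, they belong to no stated condition, and 73.7% of all RNA barcodes were of this kind. Each condition is 1 hashtag group, so no difference between conditions has a replicate check and no test is given. All intervals are 95% intervals and cover counting error only. Levels are UMIs per 1000000 UMIs of the group (CPM).

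Most genes of this kind are switched on late in the cycle of dividing cells, from late S phase to mitosis, and are low in resting cells, while a tubulin such as Tubb4b also serves cells that do not divide. The DREAM complex is known to hold them down in G1 by binding, through its MuvB core, the cell cycle genes homology region (CHR) close to the start site. In G2 the MuvB core is known to join B-MYB and FOXM1 and to activate the same promoters, together with the factor NF-Y, which binds CCAAT boxes. Cyclin B with CDK1 then starts mitosis, and CDC20 with the anaphase-promoting complex ends it.

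RefSeq promoters (GRCm38.p6, the assembly of the authors' mm10 build) were at hand for 40 of the 46 genes, 43 promoters in all, each from 250 bases before to 50 bases after an annotated start. Each was searched on both strands for the CHR written as TTTGAA, or with a single base changed as TTCGAA, and for the NF-Y box CCAAT. The stretches below run from 130 bases before the start to 30 bases after it, 5′ to 3′ in the direction of transcription. They are shown because most of them hold the shared letters that the set carries beside the start site, and because their genes recur in the results. Capitals mark each CHR or CCAAT match, and matches on the opposite strand read TTCAAA for the CHR and ATTGG for the NF-Y box. The first 5 carry both, Cks2 carries CCAAT alone and Birc5 carries neither in this window.
Cdc20 (chr4:118437314-118437473, minus strand): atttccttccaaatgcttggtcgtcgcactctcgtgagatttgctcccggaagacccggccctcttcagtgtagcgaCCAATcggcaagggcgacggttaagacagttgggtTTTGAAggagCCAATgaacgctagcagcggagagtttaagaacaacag
Ube2c (chr2:164769799-164769958, plus strand): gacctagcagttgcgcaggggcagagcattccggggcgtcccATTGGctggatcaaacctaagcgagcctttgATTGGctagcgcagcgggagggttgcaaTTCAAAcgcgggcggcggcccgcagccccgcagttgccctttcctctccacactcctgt
Ccnb2 (chr9:70421525-70421684, minus strand): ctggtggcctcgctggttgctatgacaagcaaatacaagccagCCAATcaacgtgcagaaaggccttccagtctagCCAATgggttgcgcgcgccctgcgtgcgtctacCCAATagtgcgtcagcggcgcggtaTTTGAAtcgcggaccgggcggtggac
Top2a (chr11:99024160-99024319, minus strand): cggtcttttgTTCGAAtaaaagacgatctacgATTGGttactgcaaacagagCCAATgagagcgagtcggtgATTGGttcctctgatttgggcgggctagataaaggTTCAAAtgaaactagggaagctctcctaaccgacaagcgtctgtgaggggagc
Hmgb2 (chr8:57511713-57511872, plus strand): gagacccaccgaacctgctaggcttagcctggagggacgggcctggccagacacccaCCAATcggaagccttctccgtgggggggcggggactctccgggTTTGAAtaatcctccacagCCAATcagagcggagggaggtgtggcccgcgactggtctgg
Cks2 (chr13:51645102-51645261, plus strand): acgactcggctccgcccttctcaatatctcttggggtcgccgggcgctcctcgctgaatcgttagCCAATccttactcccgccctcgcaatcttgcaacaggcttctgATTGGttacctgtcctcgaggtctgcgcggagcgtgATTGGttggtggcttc
Birc5 (chr11:117849107-117849266, plus strand): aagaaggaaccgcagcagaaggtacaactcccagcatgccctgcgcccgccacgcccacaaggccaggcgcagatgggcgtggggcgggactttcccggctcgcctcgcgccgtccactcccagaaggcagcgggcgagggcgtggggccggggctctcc

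A CHR match was found in 34 of the 43 promoters of these genes (79.1%, interval 64.0 to 90.0), against 19.2% of all 32851 promoters of the table and 14.0% of the 7964 promoters of genes at 10 CPM or more here. A CCAAT match was found in 35 of 43 (81.4%), against 37.4% and 37.6%. Both stood in 30 of 43 (69.8%), against 7.52% and 5.74%. The letters of an E2F element (TTTGGCG, or the other accepted form TTTCCCG) were in 4 of 43 (9.30%, interval 2.59 to 22.1), against 4.84% and 8.92%. A TATAAA match was in 2 of 43 (4.65%), against 13.6% and 6.87%. The matches also stood close to the start. Of 49 CHR matches 71.4% began within 100 bases before the start or after it, with a median position of -17, against 41.4% of the 7260 CHR matches in all promoters. The 90 CCAAT matches had a median position of -72. Ect2 and Prc1 have overlapping windows from different annotated starts, so the same sites are counted again there. Gtse1 also has a further window, with CCAAT at -241, and whether it repeats a site was not checked. The intervals treat the 43 promoters as separate. In Cdc20, which activates the anaphase-promoting complex, the CHR began at -18 with CCAAT at -53 and -8. In Hmgb2, a chromatin protein that bends DNA, the CHR began at -30 with CCAAT at -73 and -11. Ccnb2, a B-type cyclin, had CCAAT at -87, -54 and -21 and its near CHR at 4. Birc5, Nuf2, Nusap1 and Tacc3 held neither set of letters in the window, and Ccnb1, Cenpe, Cks2 and Gtse1 held CCAAT without a CHR. Of 56 promoters of the further mitosis genes listed for comparison, 60.7% (46.8 to 73.5) held a CHR and 42.9% (29.7 to 56.8) held both, with intervals that overlap those of the 43 (64.0 to 90.0 and 53.9 to 82.8). In the 51 promoters of S phase and replication genes the pattern was another: a CHR in 17.6%, CCAAT in 54.9% and an E2F element in 45.1%. These matches are a description of letters. A match is not a measured binding site, and a missing one says only that these letters are not in this window.

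**Figure D1:**
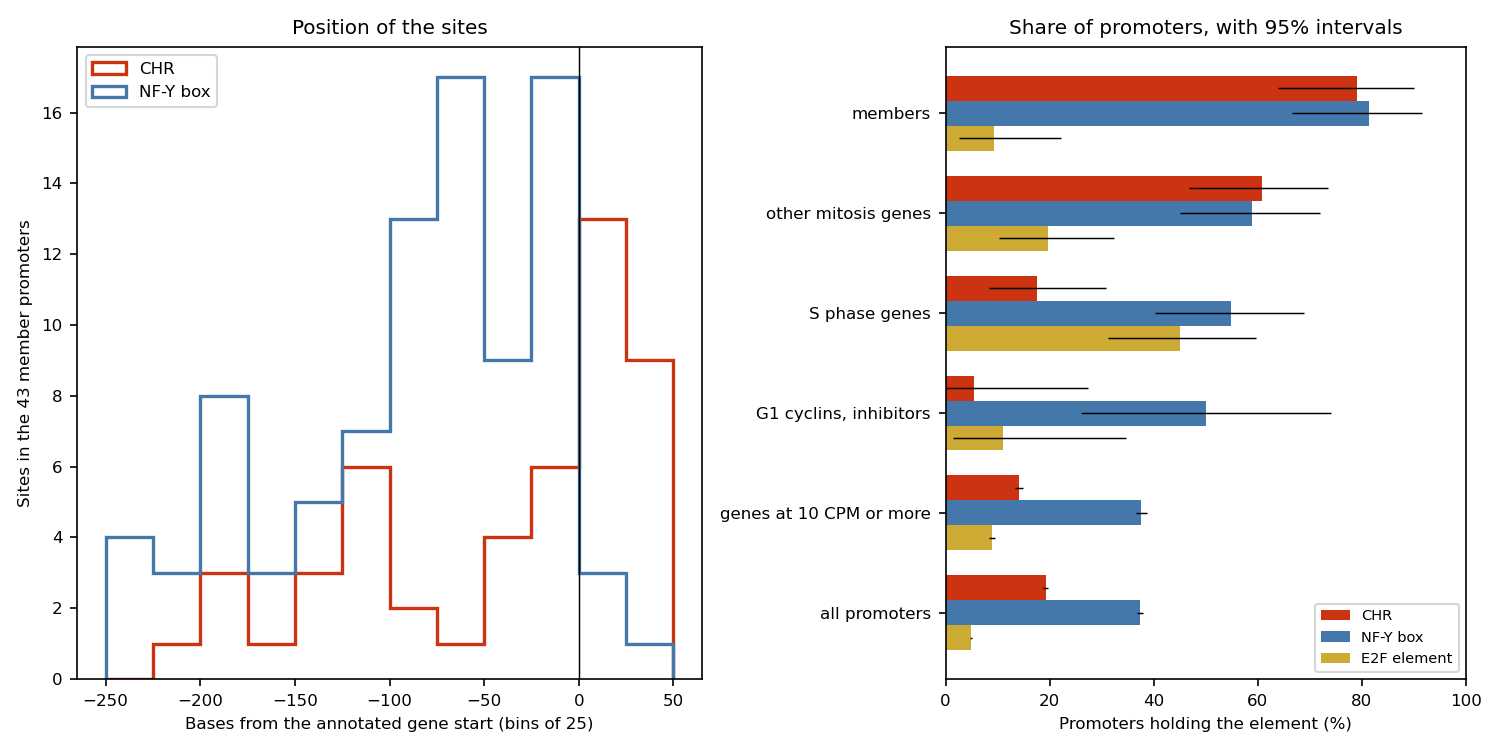
Left, number of CHR and CCAAT (NF-Y box) matches by distance in bases from the annotated start in 43 promoters of the mitosis and spindle genes, in bins of 25 bases. Right, percent of promoters holding a CHR, a CCAAT box or an E2F element in 6 sets of promoters, with 95% Clopper-Pearson intervals. The CHR was in 79.1% of the promoters of these genes and 19.2% of all promoters, while the E2F element was most frequent in the S phase genes.

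The label of melanoma cells was checked against marker lists. All 10 melanoma markers were detected in each hashtag group, summing to 11487 CPM in Prf1-/- bone, 15069 in Prf1-/- lung and 14845 in WT lung. The 9 lists of other cell types were lower: alveolar and airway epithelium summed to 19.2, 13.96 and 207 CPM in the same order, endothelium to 83.1, 79.1 and 95.5 CPM, T and NK cells to 0, 0 and 0.517 CPM, the other 6 lists to at most 41.6 CPM in any of these groups, and Ptprc, which encodes CD45, was at 0 in all 3. Median UMIs per cell were 3107, 2826.5 and 2909 in the 3 groups and 2418 in the unlisted barcodes. UMIs of these genes were also found where another cell type led. In 79 barcodes with 10 or more UMIs of alveolar markers, of which 6 passed the filter, the 46 genes summed to 2332 CPM (1967 to 2745) and the melanoma markers to 3465 CPM, at a median of 580 UMIs. Whether free RNA or mixed barcodes gave them was not tested. Beside the shares of positive cells below, the share in those 79 barcodes is given.

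All 46 genes were detected in every group. Their UMIs summed to 3579 CPM (3519 to 3639) in WT lung, 3517 CPM (3464 to 3571) in Prf1-/- lung, 3812 CPM (3707 to 3920) in Prf1-/- bone and 3861 CPM (3831 to 3891) in the unlisted barcodes. A 3′ protocol counts each captured molecule once, so these CPM need no division by length, although genes differ in how well their 3′ ends are captured. The most abundant was Tubb4b, a beta tubulin of spindle and other microtubules, with 329 CPM in Prf1-/- bone, 364 in Prf1-/- lung, 346 in WT lung and 352 in the unlisted barcodes. Tubulin and HMGB genes have close relatives and pseudogenes, and the sources used here do not say how reads matching several places were treated, so the levels of Tubb4b and Hmgb2 are uncertain to that extent. By UMIs summed over the 3 hashtag groups, Tubb4b was followed by Hmgb2, by Birc5 (survivin), Top2a, Smc2 and Cdca3. The order within a group differed: Smc2 was above Top2a in bone and Ube2c above Cdca3 in Prf1-/- lung. At the other end were Ttk, a spindle checkpoint kinase, with 7.70 CPM in Prf1-/- bone, 5.92 in Prf1-/- lung, 7.24 in WT lung and 7.41 in the unlisted barcodes, and Gtse1, a microtubule-binding protein, with 5.39 CPM in Prf1-/- bone, 6.98 in Prf1-/- lung, 7.24 in WT lung and 6.81 in the unlisted barcodes. Between these the levels spread over about the same range in every group, and neighbours in the order mostly had overlapping intervals.

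By role, chromosome structure and spindle proteins held the most UMIs. The 6 genes of mitotic chromosome structure summed to 1019 CPM in Prf1-/- bone, 856 in Prf1-/- lung, 900.3 in WT lung and 985 in the unlisted barcodes. The 12 spindle motors and microtubule proteins summed to 718 CPM in Prf1-/- bone, 745 in Prf1-/- lung, 737 in WT lung and 767 in the unlisted barcodes, and Tubb4b held more of that than any other gene. Next came the 9 genes of cyclins, CDK1 and mitotic entry at 759 CPM in Prf1-/- bone, 697 in Prf1-/- lung, 703 in WT lung and 778 in the unlisted barcodes. The 8 genes of the centromere, the kinetochore (the plate that binds spindle microtubules) and the spindle checkpoint summed to 385 CPM in Prf1-/- bone, 359.7 in Prf1-/- lung, 376 in WT lung and 394 in the unlisted barcodes. The 3 genes of the chromosomal passenger complex, which corrects faulty attachments, summed to 409 CPM in Prf1-/- bone, 358 in Prf1-/- lung, 370.5 in WT lung and 417 in the unlisted barcodes. The 6 genes of the central spindle and cytokinesis summed to 312 CPM in Prf1-/- bone, 288 in Prf1-/- lung, 285 in WT lung and 308 in the unlisted barcodes. The lowest sum was that of the 2 partners of the anaphase-promoting complex, with 210.1 CPM in Prf1-/- bone, 213 in Prf1-/- lung, 206 in WT lung and 212 in the unlisted barcodes. The order of the roles was the same in WT lung and Prf1-/- lung. In bone and in the unlisted barcodes the cyclin group stood above the spindle group and the passenger complex above the kinetochore group.

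**Figure D2:**
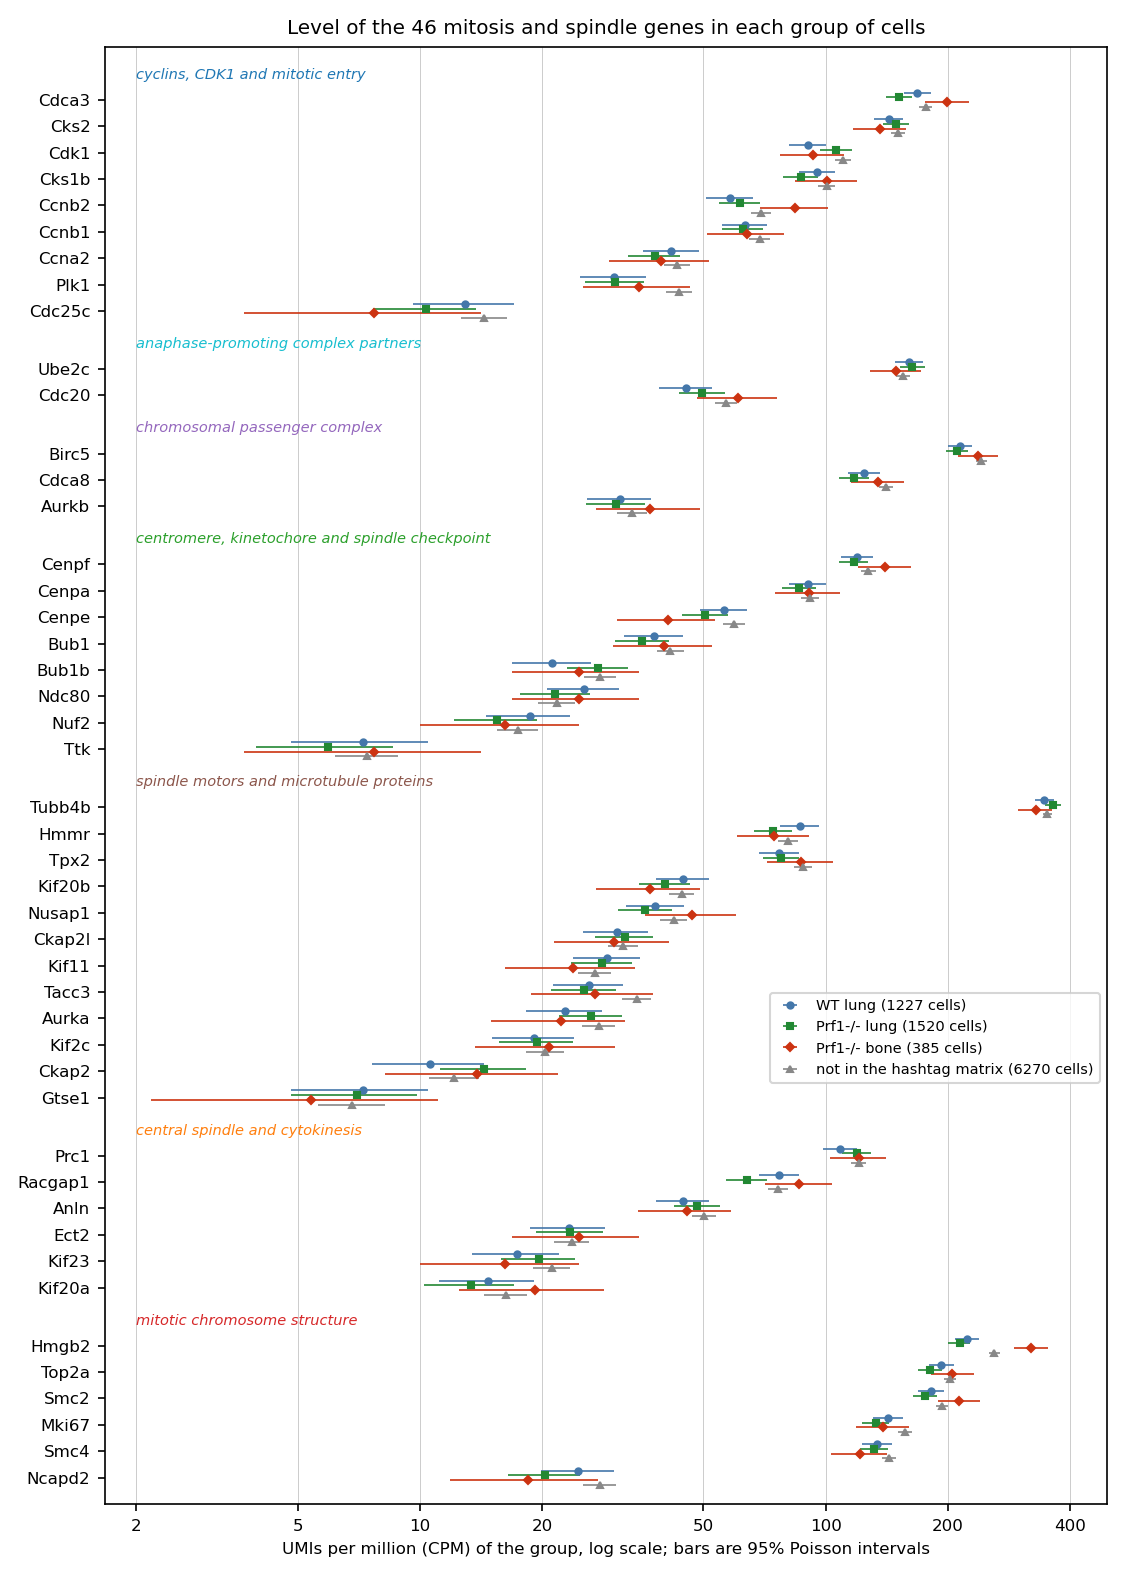
Level of each of the 46 genes in CPM (log axis) in the 3 hashtag groups and the unlisted barcodes, ordered by role and level, with exact 95% Poisson bars. The groups lie close together for nearly every gene, and Hmgb2 at 322 CPM in Prf1-/- bone against 214 in Prf1-/- lung stands apart most clearly.

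The first comparison sets bone against lung within Prf1-/- mice. The summed level in Prf1-/- bone was 1.08 times that in Prf1-/- lung (1.05 to 1.12). Of the 46 genes, 43 had a mean of at least 10 CPM over both groups and were compared singly; Cdc25c, Ttk and Gtse1 did not reach it. A gene was called where its CPM differed by 1.5-fold or more, a rule of size alone. Hmgb2 was called higher, 1 of 43, where 3.81% of all 7695 genes compared were, and 0 of 43 were called lower, where 7.39% of all genes were. The count of 1 in 43 is near the background share for higher genes. The ratio was above 1 for 28 genes and below 1 for 15 (46.1% of all genes were above 1), with a median of 0.07 on the log2 scale against -0.03 over all genes.

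The call for Hmgb2 lay at the threshold. It had 322 CPM in Prf1-/- bone, 214 in Prf1-/- lung, 224 in WT lung and 261 in the unlisted barcodes. Bone was highest, the lung groups overlapped each other, and the unlisted barcodes lay between. The ratio of bone to Prf1-/- lung was 1.504 (1.34 to 1.69). Without the barcodes that held a marker of another cell type it was 1.497, without the 1% deepest barcodes 1.45, at 2000 genes per barcode 1.49 and at a hashtag ratio of 5 1.495, so that under those 4 settings Hmgb2 was not called. Without Hmgb2 the summed ratio was 1.06 (1.02 to 1.09).

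The rest of the chromosome structure group was mixed. Smc2, a core subunit of condensin, had 213 CPM in Prf1-/- bone, 176 in Prf1-/- lung, 182 in WT lung and 194 in the unlisted barcodes, and its ratio of bone to Prf1-/- lung was 1.21 (1.05 to 1.39). Its partner Smc4 had 122 CPM in Prf1-/- bone, 132 in Prf1-/- lung, 134 in WT lung and 143 in the unlisted barcodes, with a ratio of 0.924 (0.771 to 1.10). The 2 condensin partners thus lay on opposite sides of 1, and only the interval of Smc2 stood above 1. Top2a, the topoisomerase that untangles sister chromatids, had 205 CPM in Prf1-/- bone, 181 in Prf1-/- lung, 193 in WT lung and 202 in the unlisted barcodes and a ratio of 1.13 (0.985 to 1.30). Mki67, which encodes Ki-67, a protein that coats mitotic chromosomes, had 139 CPM in Prf1-/- bone, 133 in Prf1-/- lung, 143 in WT lung and 157 in the unlisted barcodes and a ratio of 1.04 (0.878 to 1.23). Both intervals hold 1. Ncapd2, a further condensin subunit, had 18.5 CPM in Prf1-/- bone, 20.3 in Prf1-/- lung, 24.6 in WT lung and 27.8 in the unlisted barcodes.

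Among cyclins and entry factors 6 of 8 compared genes were above 1 in bone. Ccnb2 had 83.9 CPM in Prf1-/- bone, 61.6 in Prf1-/- lung, 58.2 in WT lung and 69.4 in the unlisted barcodes, and its ratio of bone to Prf1-/- lung was 1.36 (1.08 to 1.70). Its close relative Ccnb1, the main mitotic cyclin, had 63.9 CPM in Prf1-/- bone, 62.6 in Prf1-/- lung, 63.4 in WT lung and 68.8 in the unlisted barcodes and a ratio of 1.02 (0.790 to 1.31). The levels of both B cyclins were alike in the lung groups, and in bone Ccnb2 was the higher of them. Their bone intervals overlapped, at 68.9 to 101.2 CPM for Ccnb2 and 50.9 to 79.2 CPM for Ccnb1. Cdca3, an adaptor that acts at mitotic entry, had 199 CPM in Prf1-/- bone, 152 in Prf1-/- lung, 168 in WT lung and 177 in the unlisted barcodes, with a ratio of 1.31 (1.14 to 1.52). Cdk1, the kinase that both cyclins bind, had 93.1 CPM in Prf1-/- bone, 106 in Prf1-/- lung, 90.3 in WT lung and 110.3 in the unlisted barcodes and a ratio of 0.877 (0.713 to 1.07). Cks1b and Cks2, small subunits that bind CDKs, had ratios of 1.16 (0.947 to 1.42) and 0.912 (0.769 to 1.08), from bone levels of 101 and 136 CPM and Prf1-/- lung levels of 86.7 and 149. None of these passed 1.5-fold, and the intervals of Ccnb2 and Cdca3 lay above 1.

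The 2 partners of the anaphase-promoting complex split. Cdc20 had 60.8 CPM in Prf1-/- bone, 49.7 in Prf1-/- lung, 45.3 in WT lung and 56.8 in the unlisted barcodes and a ratio of bone to Prf1-/- lung of 1.22 (0.935 to 1.58). Ube2c, the enzyme that hands ubiquitin to that complex, had 149 CPM in Prf1-/- bone, 164 in Prf1-/- lung, 161 in WT lung and 155 in the unlisted barcodes and a ratio of 0.912 (0.775 to 1.07). Both intervals hold 1. The chromosomal passenger genes were all above 1: Birc5 had 238 CPM in Prf1-/- bone, 211 in Prf1-/- lung, 215 in WT lung and 242 in the unlisted barcodes and a ratio of 1.13 (0.991 to 1.28). Cdca8 (borealin) and the kinase gene Aurkb had ratios of 1.15 (0.962 to 1.36) and 1.21 (0.856 to 1.69), and the sum of the 3 had a ratio of 1.14 (1.03 to 1.26).

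At the kinetochore, Cenpf had 140.1 CPM in Prf1-/- bone, 117 in Prf1-/- lung, 119.5 in WT lung and 128 in the unlisted barcodes and a ratio of bone to Prf1-/- lung of 1.19 (1.01 to 1.42). Cenpe, the motor that moves chromosomes to the plate, had 40.8 CPM in Prf1-/- bone, 50.6 in Prf1-/- lung, 56.1 in WT lung and 59.4 in the unlisted barcodes. Its ratio of 0.807 (0.587 to 1.09) was the lowest of the 43, and its interval still holds 1. The spindle group was the one with most genes below 1, 6 of 11. Kif11, the motor that pushes the poles apart, had 23.9 CPM in Prf1-/- bone, 28.1 in Prf1-/- lung, 28.97 in WT lung and 26.98 in the unlisted barcodes and a ratio of 0.848 (0.554 to 1.26). Aurka, the kinase of the spindle poles, had 22.3 CPM in Prf1-/- bone, 26.4 in Prf1-/- lung, 22.8 in WT lung and 27.6 in the unlisted barcodes and a ratio of 0.844 (0.543 to 1.27). Tubb4b had a ratio of 0.905 (0.812 to 1.01). In cytokinesis, Racgap1, a part of the centralspindlin complex, had 86.2 CPM in Prf1-/- bone, 63.9 in Prf1-/- lung, 76.8 in WT lung and 76.4 in the unlisted barcodes and a ratio of 1.35 (1.08 to 1.68). Its centralspindlin partner Kif23 had 16.2 CPM in Prf1-/- bone, 19.7 in Prf1-/- lung, 17.3 in WT lung and 21.1 in the unlisted barcodes and a ratio of 0.821 (0.486 to 1.33). Kif20a, a motor of the central spindle, had 19.2 CPM in Prf1-/- bone, 13.3 in Prf1-/- lung, 14.7 in WT lung and 16.3 in the unlisted barcodes and a ratio of 1.44 (0.870 to 2.33), with 25 UMIs in bone. Its interval holds both 1 and a 2-fold ratio. The compared genes not given singly lay between 0.895 (0.588 to 1.33) for Bub1b and 1.31 (0.958 to 1.76) for Nusap1.

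**Figure D3:**
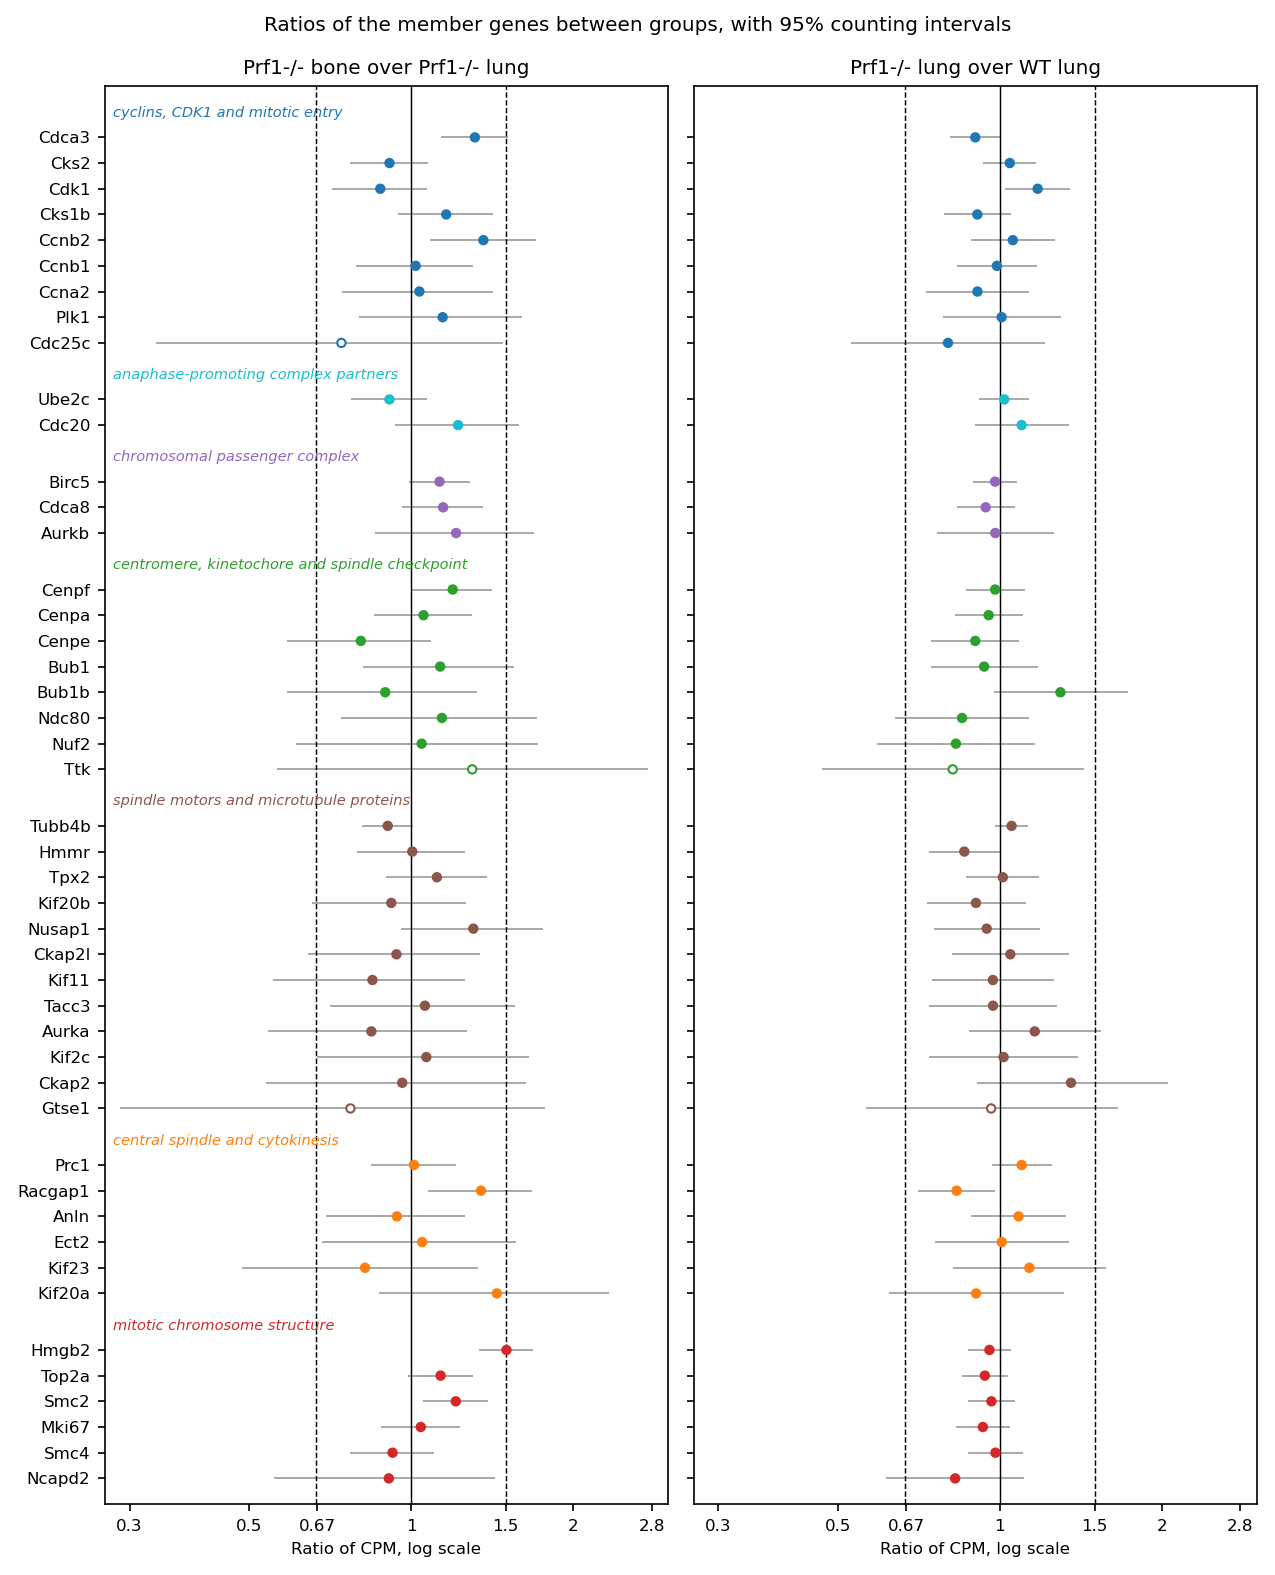
Ratio of levels for each of the 46 genes, Prf1-/- bone to Prf1-/- lung and Prf1-/- lung to WT lung, on a log axis with exact 95% intervals. Dashed lines mark 1.5-fold in either direction and open circles are genes below 10 CPM. Hmgb2 at 1.504 is the gene on the line in the bone comparison, and no gene reaches a line among those compared in the lung comparison.

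The second comparison sets the lungs of Prf1-/- mice against those of wild-type mice. The summed ratio of Prf1-/- lung to WT lung was 0.983 (0.961 to 1.005). Of 44 genes compared, 0 were called higher, where 0.71% of all 7748 genes were, and 0 were called lower, where 1.11% were. A background this low gives 0 or near 0 of 44, so the counts say nothing particular about these genes. The ratio was above 1 for 17 genes and below 1 for 27 (50.9% of all genes were above 1). The median was -0.04 (log2) against 0.00 over all genes. The ratio was highest for Ckap2, a spindle microtubule protein, at 1.36 (0.907 to 2.05), with 13.9 CPM in Prf1-/- bone, 14.4 in Prf1-/- lung and 10.6 in WT lung. Next was Bub1b, which encodes the checkpoint protein BUBR1, at 1.30 (0.976 to 1.73), with 24.6 CPM in Prf1-/- bone, 27.5 in Prf1-/- lung and 21.2 in WT lung. Cdk1 followed at 1.18 (1.02 to 1.35) and Aurka at 1.16 (0.877 to 1.54). Among these 4 the interval stood above 1 for Cdk1. The lowest was Cdc25c, the phosphatase that activates CDK1, at 0.801 (0.529 to 1.21), with 7.70 CPM in Prf1-/- bone, 10.4 in Prf1-/- lung and 12.9 in WT lung. Ncapd2 was at 0.826 (0.616 to 1.11), Nuf2, a part of the microtubule-binding NDC80 complex, at 0.829 (0.590 to 1.16), and Racgap1 at 0.832 (0.706 to 0.979). Of these 4, Racgap1 had an interval below 1, and it was also among the genes with the highest ratio of bone to Prf1-/- lung. Both comparisons use the same Prf1-/- lung cells: its level there, 63.9 CPM, lay below all the other groups. By role, the ratio ran from 0.951 (0.908 to 0.995) for chromosome structure to 1.04 (0.944 to 1.14) for the anaphase-promoting complex partners.

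Set against WT lung, Prf1-/- bone had a summed ratio of 1.07 (1.03 to 1.10). Of 44 genes 0 were called higher, where 3.79% of all 7707 genes were, and 1 was called lower, where 8.04% were. The gene called lower was Cdc25c, at 0.595 (0.269 to 1.19) with 10 UMIs in bone, and its interval holds 1. Hmgb2 and Ccnb2 were below the threshold here too, at 1.44 (1.28 to 1.62) and 1.44 (1.14 to 1.82). The unlisted barcodes had a summed level 1.08 times that of the 3 hashtag groups together (1.06 to 1.09). Of 44 genes 0 were called higher, where 0.0905% of 7738 genes were, and 0 lower, where 0.207% were. The ratio was above 1 for 39 of 44 genes, with a median of 0.12 (log2) against 0.005 over all genes. The share of all genes above 1 was not counted for the unlisted barcodes. It ran from 0.927 for Ndc80, a microtubule-binding kinetochore protein, to 1.42 (1.24 to 1.63) for Plk1, the polo kinase of mitotic entry. Tacc3, which strengthens spindle fibres, was at 1.32. How the conditions mix in the unlisted barcodes is not known, and the part of that mixture in these ratios was not tested.

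Shares of positive cells depend on depth, so they were counted both as deposited and after each cell was thinned at random to 1500 UMIs (1227, 1519 and 385 cells kept in WT lung, Prf1-/- lung and bone). With all UMIs, a UMI of Tubb4b was found in 51.9% of WT lung cells, 52.2% of Prf1-/- lung cells and 51.7% of Prf1-/- bone cells. That share was the highest of the 46, and it was 27.8% in the alveolar-like barcodes, which had a median of 580 UMIs against 2826.5 to 3107 in the 3 groups. For Hmgb2 it was 35.3% (32.6 to 38.04) of WT lung cells, 35.1% (32.7 to 37.5) of Prf1-/- lung cells and 48.1% (42.96 to 53.2) of Prf1-/- bone cells, against 6.33% in the alveolar-like barcodes. For Ccnb2 it was 14.3% (12.4 to 16.3) of WT lung cells, 14.9% (13.1 to 16.8) of Prf1-/- lung cells and 24.9% (20.7 to 29.6) of Prf1-/- bone cells, with 2.53% in the alveolar-like barcodes. Birc5 was found in 31.5% (28.9 to 34.2) of WT lung cells, 28.4% (26.2 to 30.8) of Prf1-/- lung cells and 39.7% (34.8 to 44.8) of Prf1-/- bone cells, and Cdca3 in 30.6% (28.1 to 33.3) of WT lung cells, 28.4% (26.1 to 30.7) of Prf1-/- lung cells and 39.2% (34.3 to 44.3) of Prf1-/- bone cells, with 2.53% and 3.80% in the alveolar-like barcodes. For these 4 genes the intervals of bone and Prf1-/- lung were apart and bone was higher, 4 of 43, where 5.99% of all 7695 genes did so, and 0 of 43 were apart with bone lower, where 2.04% of all genes were. Bone had the larger share for 36 of the 46 genes, and for 60.9% of all genes compared. Bone cells were also the deepest, so these shares are given again at equal depth.

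At 1500 UMIs per cell Hmgb2 was found in 21.1% (18.9 to 23.5) of WT lung cells, 20.2% (18.2 to 22.3) of Prf1-/- lung cells and 29.1% (24.6 to 33.9) of Prf1-/- bone cells. Bone was again the highest of the 3 groups. UMIs per positive cell were 1.41, 1.34 and 1.52 in the same order. With so few UMIs per cell, a higher level shows mostly as more positive cells. These values therefore do not separate more positive cells from more RNA in each. Cks1b was found in 11.8% (10.1 to 13.8) of WT lung cells, 9.41% (7.99 to 11) of Prf1-/- lung cells and 15.3% (11.9 to 19.3) of Prf1-/- bone cells, with 3.80% in the alveolar-like barcodes at their own depth. With all UMIs these were 23.6% of WT lung cells, 20.1% of Prf1-/- lung cells and 26.2% of Prf1-/- bone cells. With these 2 genes, 2 of 43 had bone higher with intervals apart, where 2.34% of all genes did, and 0 of 43 had bone lower, where 2.48% did. Ccnb2 was found in 6.93% (5.57 to 8.49) of WT lung cells, 7.77% (6.47 to 9.23) of Prf1-/- lung cells and 11.4% (8.43 to 15.04) of Prf1-/- bone cells, and Birc5 in 20.3% (18.1 to 22.7) of WT lung cells, 18.3% (16.4 to 20.3) of Prf1-/- lung cells and 24.2% (19.96 to 28.8) of Prf1-/- bone cells. Their intervals overlapped between bone and Prf1-/- lung at this depth. Cdk1 was found in 11.4% (9.68 to 13.3) of WT lung cells, 10.99% (9.46 to 12.7) of Prf1-/- lung cells and 8.31% (5.75 to 11.5) of Prf1-/- bone cells, with 1.27% in the alveolar-like barcodes. The lower value in bone at equal depth stood against 20.4% of WT lung cells, 22.2% of Prf1-/- lung cells and 22.6% of Prf1-/- bone cells with all UMIs, so no order of the groups is read from it. Cenpe was found in 6.93% of WT lung cells, 5.79% of Prf1-/- lung cells and 3.90% of Prf1-/- bone cells, against 13.7% of WT lung cells, 11.6% of Prf1-/- lung cells and 10.9% of Prf1-/- bone cells with all UMIs and 2.53% in the alveolar-like barcodes. Bone had the larger share for 28 of 46 genes at equal depth, against 46.5% of all genes compared.

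The genes were then summed within each thinned cell. No UMI of any of the 46 was found in 23.9% of WT lung cells, 22.6% of Prf1-/- lung cells, 17.9% of bone cells and 18.5% of unlisted barcodes. Between 1 and 4 UMIs were found in 43.5%, 47.4%, 46.2% and 42.0%, in the same order. The next range, 5 to 9 UMIs, held 13.9% (11.97 to 15.9), 12.6% (10.9 to 14.3), 18.2% (14.5 to 22.4) and 18.8% (17.8 to 19.7). In that range the bone interval lay just above that of Prf1-/- lung and overlapped that of WT lung. Cells with 10 or more UMIs made up 18.7% (16.6 to 21.0) of WT lung, 17.4% (15.6 to 19.4) of Prf1-/- lung, 17.7% (14.0 to 21.8) of bone and 20.7% (19.7 to 21.7) of unlisted barcodes. The intervals of the 3 hashtag groups overlapped for the cells rich in these genes. Per cell of the group, those with 5 to 9 gave 1.23 UMIs of these genes in bone and 0.835 in Prf1-/- lung, those with 1 to 4 gave 1.05 and 0.893, and those with 10 or more gave 2.72 and 2.84. These values are of 1 random thinning. With a second seed, 10 or more UMIs were found in 17.4% of WT lung, 17.1% of Prf1-/- lung and 20.3% of bone cells, so the split of the bone surplus in a single draw varied with the seed. Over all possible thinnings, the expected share with 10 or more was 17.8%, 16.9% and 18.0% in WT lung, Prf1-/- lung and bone, and that with 5 to 9 was 14.5%, 13.2% and 20.2%. The expected surplus of bone cells thus lay more at 5 to 9 UMIs than at 10 or more. Without thinning, 32.1%, 31.4% and 41.3% had 10 or more. The limit of 10 is set on a continuous range: 53, 56 and 26 cells had 8 or 9 UMIs and 57, 71 and 17 had 10 or 11. The cells with 10 or more held 62.2%, 62.1% and 54.3% of all UMIs of the 46 genes.

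Cells with many UMIs of these genes also differed in other readouts. Over the 3 hashtag groups, cells with 0, 1 to 4, 5 to 9, 10 to 19 and 20 or more of these UMIs had median unthinned depths of 2517, 2806, 3436, 3489.5 and 3826 UMIs. Their mean UMIs of S phase genes per thinned cell were 1.72, 3.39, 7.52, 6.84 and 5.61. The S phase sum was thus highest in the middle range and lower where mitosis genes were highest. In the unlisted barcodes it was 2.00, 4.00, 7.93, 7.12 and 5.64. The mean of 64 other mitosis genes was higher in each successive range, at 3.67, 4.94, 8.87, 11.8 and 15.9. The alveolar markers summed to 227 CPM in cells with 10 or more and 53.5 in the others, with a UMI in 28 of 563 and 110 of 2568 cells. Their part in the shares was not tested. Ccnd2, a G1 cyclin, went the other way, at 759, 572, 316 and 259 CPM in cells with 0, 1 to 4, 5 to 9 and 10 or more UMIs. Cdkn1a, which encodes the CDK inhibitor p21, was at 191, 169, 102 and 111 CPM. The groups differed in this: bone cells were at 38.6, 63.7, 19.05 and 49.02 CPM on 4, 17, 2 and 5 UMIs, with no steady order, and the unlisted barcodes at 181, 156, 94.2 and 118 CPM. Ccnd2 in bone was at 454, 285, 305 and 196 CPM. Of the activators named above, Foxm1 was at 2.84, 12.1, 30.9 and 54.5 CPM. Mybl2, which encodes B-MYB, was at 1.89, 6.52, 21.7 and 10.7 CPM on 2, 14, 14 and 9 UMIs. Nfyb, a subunit of NF-Y, was at 35.9, 33.99, 41.8 and 43.8 CPM. Foxm1 was thus higher in each range, Mybl2 highest at 5 to 9, and Nfyb differed least. Cck, which encodes the peptide cholecystokinin, was chosen after its values were known. A UMI of Cck was found in 42.0% (30.2 to 54.5), 36.0% (28.9 to 43.5), 30.0% (19.6 to 42.1) and 20.6% (11.7 to 32.1) of bone cells over those 4 ranges. In WT lung it was 9.22%, 7.68%, 8.82% and 8.26%, and in Prf1-/- lung 8.16%, 9.44%, 8.38% and 8.30%. In the 79 alveolar-like barcodes, at a median of 580 UMIs, it was 7.59% (2.84 to 15.8). The lung shares, between 7.68% and 9.44%, lay within that interval, so no expression is read from these shares alone. Single thinned cells, however, held up to 33 Cck UMIs in Prf1-/- lung and up to 22 in WT lung. Whether background or expression gave the lung UMIs was not tested. The bone share was lower in each successive range, with overlapping intervals between neighbours. In the unlisted barcodes the Cck share was 13.6%, 13.0%, 15.4% and 11.4%, with no steady order.

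**Figure D4:**
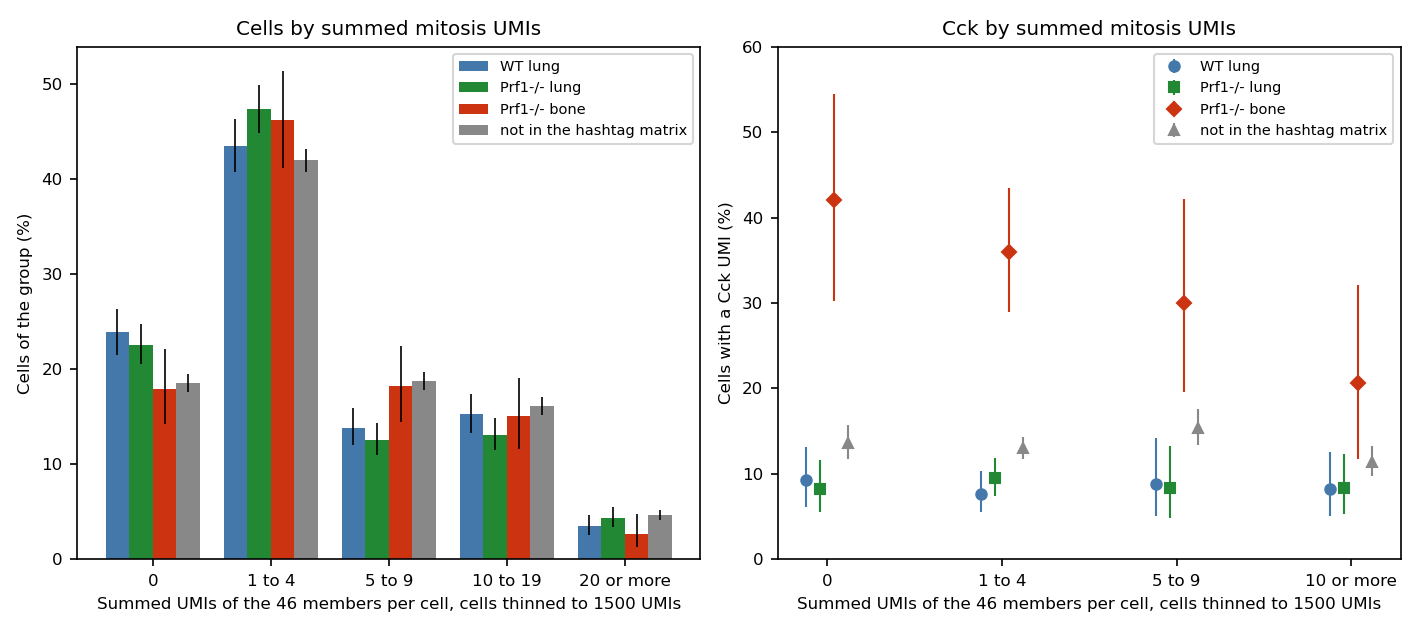
Left, percent of cells of each group by the summed UMIs of the 46 genes after thinning to 1500 UMIs per cell. Right, percent of cells with a Cck UMI in the same ranges, with 95% Clopper-Pearson intervals. Bone has 18.2% of cells at 5 to 9 UMIs against 12.6% in Prf1-/- lung, the shares at 10 or more are between 17.4% and 18.7% in the 3 hashtag groups, and the Cck share in bone goes from 42.0% to 20.6%.

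The mix of roles differed with the sum. The 79 alveolar-like barcodes also held UMIs of these genes, at 2332 CPM. The part of such UMIs in the cells with 1 to 4 was not tested. Of the UMIs of these genes in cells with 1 to 4, 2.62% belonged to the anaphase-promoting complex partners, against 6.99% in cells with 10 or more and 8.84% with 20 or more. For the kinetochore group these were 6.56%, 11.9% and 12.1%, and for cytokinesis 6.27%, 8.52% and 10.3%. The spindle group was a smaller part where the sum was high, from 27.7% to 19.4% and 18.7%, and chromosome structure from 27.8% to 23.5% and 22.8%. The cyclin group was also a smaller part, going from 22.5% in cells with 1 to 4 to 17.6% with 20 or more. The chromosomal passenger complex held 6.59% with 1 to 4, 12.4% with 5 to 9, 10.6% with 10 or more and 9.66% with 20 or more. Partners of the anaphase-promoting complex, kinetochore genes and cytokinesis genes thus held their largest part of the UMIs in the richest cells. The passenger complex was also a larger part there than with 1 to 4, but was highest at 5 to 9.

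For each gene, the share of its UMIs was taken that fell in cells with 10 or more UMIs of the other 45. These cells were between 16.2% and 17.98% of all thinned cells of the 3 groups, depending on the gene left out. All 46 genes lay above that, with a median of 59.4%. The highest were Kif2c, a kinesin that takes microtubules apart, at 73.5% (62.7 to 82.6), Kif23 at 72.7% (60.4 to 82.97), Nusap1, a microtubule bundling protein, at 70.7% (62.7 to 77.8) and Ttk at 69.4% (51.9 to 83.7) on 36 UMIs. Plk1, Cdc20 and Ube2c were also high, at 68.4%, 68.2% and 67.2%. The lowest were Cks1b at 35.8% (31.05 to 40.9), Tubb4b at 36.95% (34.5 to 39.5), Ncapd2 at 37.1% (27.1 to 47.97) and Tacc3 at 38.1% (29.1 to 47.7). Tubb4b is the gene with most UMIs and yet 17.5% of them lay in cells with no UMI of any other of the 46. Of these 8 genes, Kif2c, Kif23 and Nusap1 were also high in the unlisted barcodes, at 72.7%, 71.4% and 76.5%, and Cks1b and Tubb4b low, at 37.6% and 38.7%. Ttk at 51.4%, Ncapd2 at 52.4% and Tacc3 at 51.96% did not hold their places there. Over genes, the shares in the unlisted barcodes went with these (Pearson r 0.838 over 46 genes, a description of 2 sets of barcodes from the same run).

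The genes also differed in how far they overlapped with replication. Cells with 10 or more UMIs of the S phase list made up 12.2% of the 3 groups. The share of a gene's UMIs in those cells was highest for Aurkb at 43.4% (34.9 to 52.1), followed by Top2a at 36.5% (32.95 to 40.1), Kif11 at 34.3% (25.3 to 44.2), Nuf2 at 30% (19.6 to 42.1) and Smc2 at 29.6% (26.3 to 32.9). It was lowest for Cdc20 at 10% (6.37 to 14.7), with Ccnb2 at 10.8% (7.40 to 15.05), Cenpa, the histone of the centromere, at 10.8% (7.90 to 14.4), Plk1 at 11.8% (6.88 to 18.4) and Ube2c at 12.4% (9.86 to 15.3). The median over the 46 was 20.5%. In the unlisted barcodes, where 17.2% of cells were rich in S phase RNA, Aurkb was at 36.4% and Top2a at 38.9%. Cdc20 was at 11.6% (9.02 to 14.6) there, Ccnb2 at 12.9% (10.3 to 15.8) and Cenpa at 12.1% (9.91 to 14.5), all below the share of such cells, while Plk1 was at 17.6% (14.02 to 21.7). In the hashtag groups the intervals of these 4 genes hold the share of such cells there, 12.2%. Among the 563 cells with 10 or more UMIs of the 46 genes 21.8% were also rich in S phase RNA, against 10.0% of the other 2568.

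Pairs of the 12 most abundant genes were found in the same thinned cells more often than the product of their shares gives. All 66 pairs were above 1, from 1.24 for Tubb4b with Smc4 to 3.06 for Ube2c with Cenpf, with a median of 2.05. Ube2c and Cenpf stood together in 154 cells against 50.3 from the product. In the unlisted barcodes all 66 were above 1 as well, from 1.27 to 2.67. The pairs share genes, cells and the library, so they are not independent of each other.

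**Figure D5:**
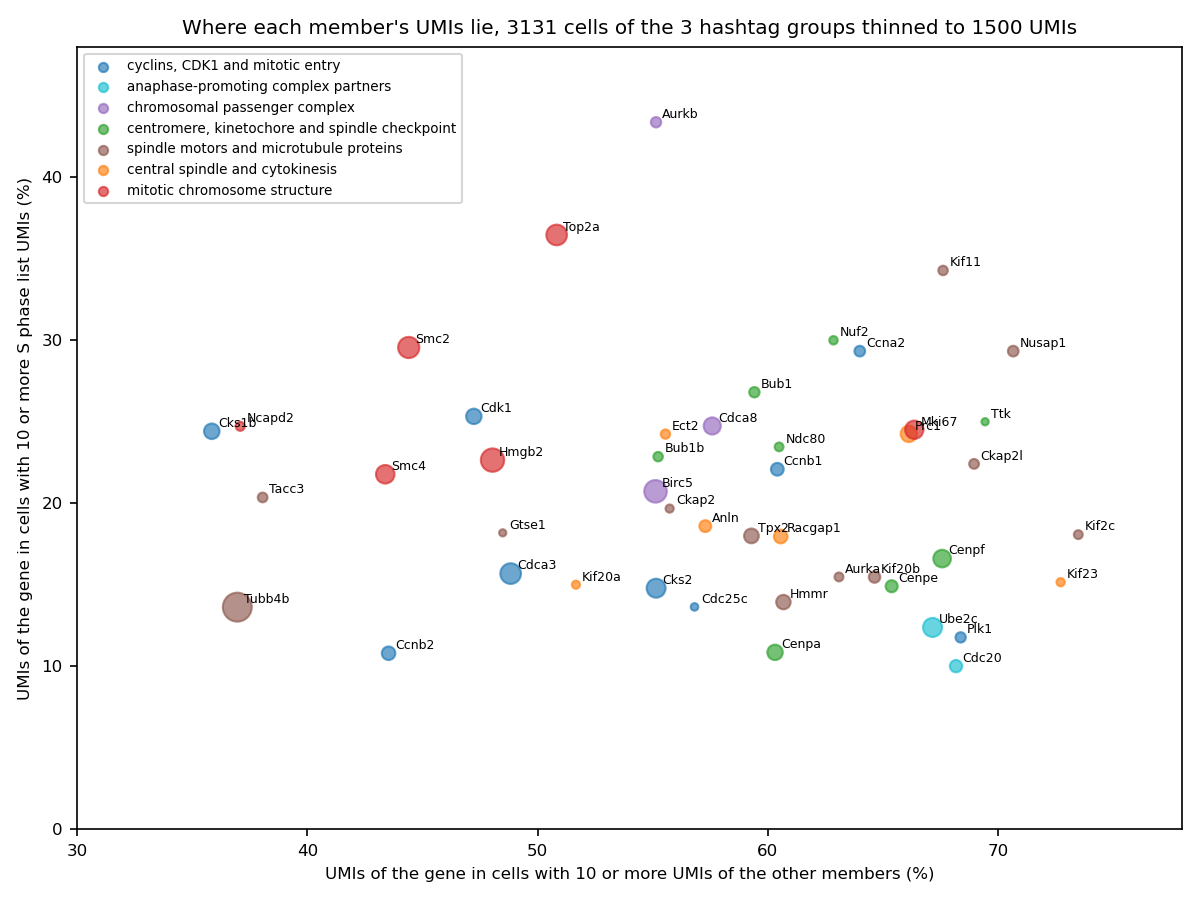
Each point is 1 of the 46 genes over 3131 thinned cells, with the percent of its UMIs in cells holding 10 or more UMIs of the other 45 genes against the percent in cells holding 10 or more S phase UMIs. Point size grows with the gene's UMIs. Kif2c lies at 73.5% of the first measure and Cks1b at 35.8%, and Aurkb at 43.4% of the second and Cdc20 at 10%.

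Related lists were summed in the same way. Their counts between bone and Prf1-/- lung stand against 3.81% of all genes called higher, 7.39% called lower and 46.1% above 1. The 64 other mitosis genes summed to 5115 CPM in Prf1-/- bone, 4696 in Prf1-/- lung and 4699 in WT lung, a ratio of bone to Prf1-/- lung of 1.09 (1.06 to 1.12). Of 53 compared, Cenpn and Trip13 were called higher, at 1.64 and 1.51, and Cdc25b lower, at 0.455. The difference between this ratio and that of the 46 genes was not tested. The 54 S phase and replication genes summed to 3589.9 CPM in Prf1-/- bone, 2946 in Prf1-/- lung and 3119.6 in WT lung, with a ratio of 1.22 (1.18 to 1.26). Of 52 compared, 44 were above 1, 6 were called higher and 1, Ccne2, lower. Cdt1, which loads the replicative helicase, had 68.5 CPM in Prf1-/- bone, 30.9 in Prf1-/- lung and 42.2 in WT lung and a ratio of 2.22 (1.68 to 2.91), and Cdca7 had 31.6 CPM in Prf1-/- bone, 9.94 in Prf1-/- lung and 15.3 in WT lung and a ratio of 3.17 (2.04 to 4.93). The ratio of the S phase sum in bone was thus larger than that of the mitosis sum, with intervals apart. The regulators of the DREAM, B-MYB, FOXM1 and E2F families summed to 460.2 CPM in Prf1-/- bone, 452 in Prf1-/- lung and 447 in WT lung, a ratio of 1.02 (0.928 to 1.11). Of 17 compared, Rbl2, a pocket protein of DREAM, was called higher at 1.55 and E2f4 lower at 0.634. The G1 cyclins and cell cycle inhibitors summed to 1421 CPM in Prf1-/- bone, 1877 in Prf1-/- lung and 1782 in WT lung, a ratio of 0.757 (0.720 to 0.796), with 0 of 13 called higher and 4 lower. Ccnd2 had 306 CPM in Prf1-/- bone, 538 in Prf1-/- lung and 506 in WT lung and a ratio of 0.569 (0.511 to 0.633). Cdkn1a had 52.3 CPM in Prf1-/- bone, 170.1 in Prf1-/- lung and 146 in WT lung and a ratio of 0.308 (0.237 to 0.394). Between Prf1-/- lung and WT lung the sum of the other mitosis genes had a ratio of 1.000 (0.980 to 1.02) and that of the S phase genes 0.944 (0.921 to 0.968), with 1 of 53 S phase genes called higher, where 0.71% of all genes were, and 2 lower, where 1.11% were.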

How the data were processed

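RNA and hashtag libraries of 1 pooled 10x 3′ run were analysed from the filtered count matrices that the authors deposited, which hold UMI counts. The RNA matrix gives Cell Ranger 6.0.0, per the file headers, while Cell Ranger 6.1.2, Seurat 4.3.0 and mm10 are named in the submitters' processing notes. The sources used here do not say how reads were filtered beyond that. The cell metadata table was not used here, and 0 columns belong to another series.

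Barcodes were kept at 1000 or more genes and 15% or fewer mitochondrial UMIs and given to a hashtag at a count ratio of 2 or more. No doublet caller was run: 309 barcodes with a lower ratio were left out, and leaving out the 1% deepest barcodes or those with other cell types' markers were alternatives. Group sums were divided by total UMIs and multiplied to CPM. A sum of 3 UMIs, the limit that a count of 0 allows, was 2.31 CPM in Prf1-/- bone, 0.635 in Prf1-/- lung and 0.776 in WT lung. Intervals are exact Poisson for levels, conditional binomial for ratios and Clopper-Pearson for shares. Genes with a mean of 10 CPM or more over the 2 groups were called past 1.5-fold. Thinning drew 1500 UMIs per cell with a fixed seed. The code was tested on simulated data. Python 3.11.15, numpy 2.4.6, scipy 1.17.1, pandas 2.3.3 and matplotlib 3.10.9 were used, with R 4.3.3, Seurat 5.3.0 (HTODemux) and edgeR 4.0.16 (TMM factors only) for alternatives.

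Genes named singly are the 12 with most UMIs, the 4 highest and 4 lowest ratios of the first 2 comparisons and the 4 most and 4 least concentrated in cells rich in the other members; further genes were named after their values were seen. The members, gene lists and tests were chosen with earlier results of these data known.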

Additional observations from a re-analysis of the deposited data

How the results depend on the processing

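The count of the 46 genes past 1.5-fold between Prf1-/- bone and Prf1-/- lung was 1 as reported and 1 under 8 of 14 alternatives. It was 5 at a minimum of 2000 genes (Gtse1, Kif20a, Ndc80 and Ttk higher, Cdc25c lower), where 29.3% of all genes were called, and 6 after thinning (Cks1b, Hmgb2 and Nusap1 higher, Cenpe, Kif11 and Ndc80 lower), where 19.1% were. It was 2 at a hashtag ratio of 5 (Kif20a, Nusap1; background 15.9%), 3 with the mean of cell CPM (Ccnb2, Hmgb2, Racgap1; 13.2%), and 0 without barcodes holding other cell types' markers (12.3%) or without the 1% deepest (11.4%). Between Prf1-/- lung and WT lung it was 0 as reported and under 11 of 14 alternatives, 5 at 2000 genes (background 17.9%), 1 at a hashtag ratio of 5 (Kif20a lower; 4.21%) and 1 after thinning (Ncapd2 lower; 5.77%). Only 126, 145 and 47 cells passed 2000 genes. The summed ratio of bone to Prf1-/- lung was 1.04 at 2000 genes, 1.13 at 500 genes and 1.05 without the 1% deepest barcodes, and between 1.06 and 1.11 under the other 9. That of Prf1-/- lung to WT lung was between 0.963 and 1.00 under all 12. The ratio for Hmgb2 was between 1.45 and 1.63 under 10 settings.

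The share of cells with 10 or more summed UMIs in WT lung, Prf1-/- lung and bone was 38.1%, 33.1% and 40.4% at 2000 genes, 33.3%, 33.3% and 34.9% when thinned to 2500 UMIs, 32.1%, 31.4% and 41.3% without thinning, and 31.5%, 29.5% and 39.2% at a limit of 5 UMIs, a limit chosen after seeing the data. Under the other 8 it stayed within 17.1% to 19.03%, 15.8% to 17.7% and 16.9% to 20.3%. The limit of 5, the second seed, the expected share over all thinnings, the sum without Hmgb2 and the Hmgb2 ratios were added after seeing the data. The cause of a difference between settings was not tested. TMM scaling moved log2 ratios by at most 0.02.

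No paired analysis was possible because each condition is 1 hashtag group and no result comes from a test over samples. With 385 bone cells, the depth limits genes such as Ttk and Cdc25c, each with 10 UMIs in bone, for which only a large difference was detectable.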

Other observations

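Barcodes with a hashtag ratio under 2 belong to no condition. Of 309 such barcodes 242 passed the filter, with a median of 3695.5 UMIs, above that of every hashtag group. The 46 genes summed to 3408 CPM in them, against 3517 CPM in Prf1-/- lung, the lowest of the hashtag groups. No interval was taken for these barcodes, so no difference is read from it.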
